A study of Mus with 2 samples.

Results

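S100a8, S100a9, Ngp, Stfa1, Retnlg, BC100530 and Gm5483 are 7 genes of the neutrophil lineage among the 28693 features counted in the series, and they were followed in 2 single-cell RNA libraries of newborn mouse kidney. The genes were chosen by an earlier comparison of these same libraries, because their levels differed between them, so their difference over all cells is given as a description with no test. All 7 symbols were found in both libraries. The counts were then split by barcode into barcodes that carried at least 50 UMIs of S100a8 plus S100a9, called gated barcodes here, all other cell barcodes, and empty barcodes. A UMI (unique molecular identifier) stands for 1 captured RNA molecule.

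Kidneys were taken at birth (P0) from mice of the genotype Rbpj c/- ; Foxd1cre/+. In these animals the floxed Rbpj allele, which encodes the DNA-binding partner of the Notch receptors, was deleted by a Cre driven from Foxd1, a gene of the renal stroma, so neutrophils are not the cells the Cre was aimed at. The design names 2 controls (Rbpj c/+ ; Foxd1cre/+) and 2 mutants. Both libraries used here, replicates 1 and 2, are mutants, and the controls were not analysed here. The values therefore compare 2 samples of 1 group, each side has 1 library, and no p-value can be formed. The labels do not say whether a sample is 1 animal or a pool. Intervals are 95% intervals for counting error only.

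Neutrophils form in the bone marrow and, before and around birth, in the fetal liver, and reach organs such as the kidney with the blood. While they mature they fill their granules in a set order: primary granules first, with myeloperoxidase and elastase, then secondary granules, with lactoferrin and cathelicidin, then gelatinase granules, and RNA for each set falls once its stage has passed. Of the 7 genes only Ngp (neutrophilic granule protein) encodes a known component of the secondary granules. S100a8 and S100a9 encode the subunits of calprotectin, an abundant calcium- and zinc-binding protein of the neutrophil cytosol that monocytes also make, Retnlg encodes the secreted resistin-like gamma, and Stfa1, BC100530 and Gm5483 belong to the stefin A family of cytosolic cysteine protease inhibitors.

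In RefSeq's GRCm38.p6 table, the assembly of the submitters' mm10, S100a8 (ENSMUSG00000056054) lies on chromosome 3 from 90669071 to 90670034 and S100a9 (ENSMUSG00000056071) from 90692630 to 90695721, 22.6 kb apart. Ngp (ENSMUSG00000032484) lies on chromosome 9 from 110419808 to 110423012, and Retnlg (ENSMUSG00000022651) on chromosome 16 from 48872608 to 48874498. Stfa1 (ENSMUSG00000071562) lies on chromosome 16 from 36277148 to 36285371 and Gm5483 (ENSMUSG00000079597, listed as Cstdc4) from 36184212 to 36188111. BC100530 is ENSMUSG00000071561 in the files. The 8 stefin genes that matched the table sit within 335 kb of chromosome 16. They are close copies of each other, so a read may be assigned to a neighbour, and the split of counts among Stfa1, BC100530 and Gm5483 is uncertain.

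Replicate 1 held 163405630 UMIs and replicate 2 held 135436576. Cell barcodes, those with at least 2000 UMIs and at most 10% mitochondrial UMIs, numbered 6220 and 5149, with medians of 11988 and 12307 UMIs. There were 74593 and 81204 empty barcodes, taken as those with 50 to 250 UMIs, and their UMIs added up to 14125242 and 14349685. The libraries shared 6 cell barcodes and 2085 empty ones, and no gated barcode of a library was a cell barcode of the other. The libraries also differed in sex-linked RNA: Xist had 147152 UMIs in the cell barcodes of replicate 1 and 19 in replicate 2, and the Y-linked Ddx3y had 0 and 7184. Sex and library cannot be told apart here.

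Neutrophil-type RNA was concentrated in a few barcodes. Replicate 1 had 56 gated barcodes, 0.900% of its cell barcodes (0.681 to 1.17, exact binomial), and replicate 2 had 22, or 0.427% (0.268 to 0.646). The share was 2.11 times as high in replicate 1 (1.27 to 3.62, exact conditional interval). The gate genes were picked because they differ between these libraries, so this ratio restates that choice and is a description. Gates of other cell types are given only for the size of their ratios: replicate 1 over replicate 2 was 1.17 (0.880 to 1.57) for a macrophage gate on C1q genes, 1.12 (0.978 to 1.28) for an erythroid gate on globins and 0.943 (0.847 to 1.05) for a stroma gate on collagens. Endothelial barcodes stood at 1.28 (1.14 to 1.45), podocyte barcodes at 1.22 (1.06 to 1.40) and nephron progenitor barcodes at 0.798 (0.719 to 0.885). Removing the highest doublet scores left 49 and 8 gated barcodes, since 7 of 56 and 14 of 22 were removed, and with a mitochondrial limit of 5% the interval of the log2 ratio of shares, -0.05 to 1.51, included 0.

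The gate fell in a sparse part of the distribution. Of the cell barcodes outside it, 93.6% in replicate 1 and 96.1% in replicate 2 had no UMI of S100a8 or S100a9, and 354 and 181 barcodes had exactly 1. Only 16 and 5 barcodes had 10 or more. Just below the gate the highest sums were 47 and 45 UMIs in replicate 1 and 49 and 47 in replicate 2, and just inside it the lowest were 66 and 98 in replicate 1 and 71 and 96 in replicate 2. The median gated barcode held 548 UMIs of the pair in replicate 1 and 702 in replicate 2, and the highest held 2104 and 2197.

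S100a8 had 14173 UMIs in the cell barcodes of replicate 1 and 6483 in those of replicate 2, or 112 CPM (111 to 114) and 66.9 CPM (65.3 to 68.6), UMIs per 1000000 UMIs of those barcodes. S100a9 had 23413 and 10179 UMIs, or 186 CPM (183 to 188) and 105 CPM (103 to 107). The calprotectin pair was thus the most counted of the 7 genes in both libraries, and it was higher in replicate 1 by a ratio of 1.68 for S100a8 and 1.77 for S100a9. The secondary granule gene Ngp had 3066 and 1139 UMIs, 24.3 and 11.8 CPM, a ratio of 2.07. Retnlg had 3702 and 1511 UMIs, 29.4 and 15.6 CPM, a ratio of 1.88.

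Among the stefins the ratios spread more widely. Stfa1 had 6994 UMIs in replicate 1 and 1380 in replicate 2, 55.5 CPM (54.2 to 56.8) and 14.2 CPM (13.5 to 15), a ratio of 3.89. BC100530 had 5305 and 2691 UMIs, 42.1 and 27.8 CPM, a ratio of 1.51. Gm5483 had 3338 and 1342 UMIs, 26.5 and 13.9 CPM, a ratio of 1.91. All 7 genes were higher in replicate 1, the direction they were picked for, and Stfa1 and BC100530 marked the ends of the range. Of 9297 genes averaging 10 CPM or more in cell barcodes, 12 were over 2-fold higher in replicate 1, which is 0.129%, and 14 in replicate 2, which is 0.151%. Stfa1 and Ngp were 2 of those 12, and the other members fell short of 2-fold. Since this contrast chose the members, nothing is read from that count. Removal of the highest doublet scores moved the log2 ratio of the summed members in cell barcodes from 0.90 to 3.57, in the same direction.

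**Figure D1:**
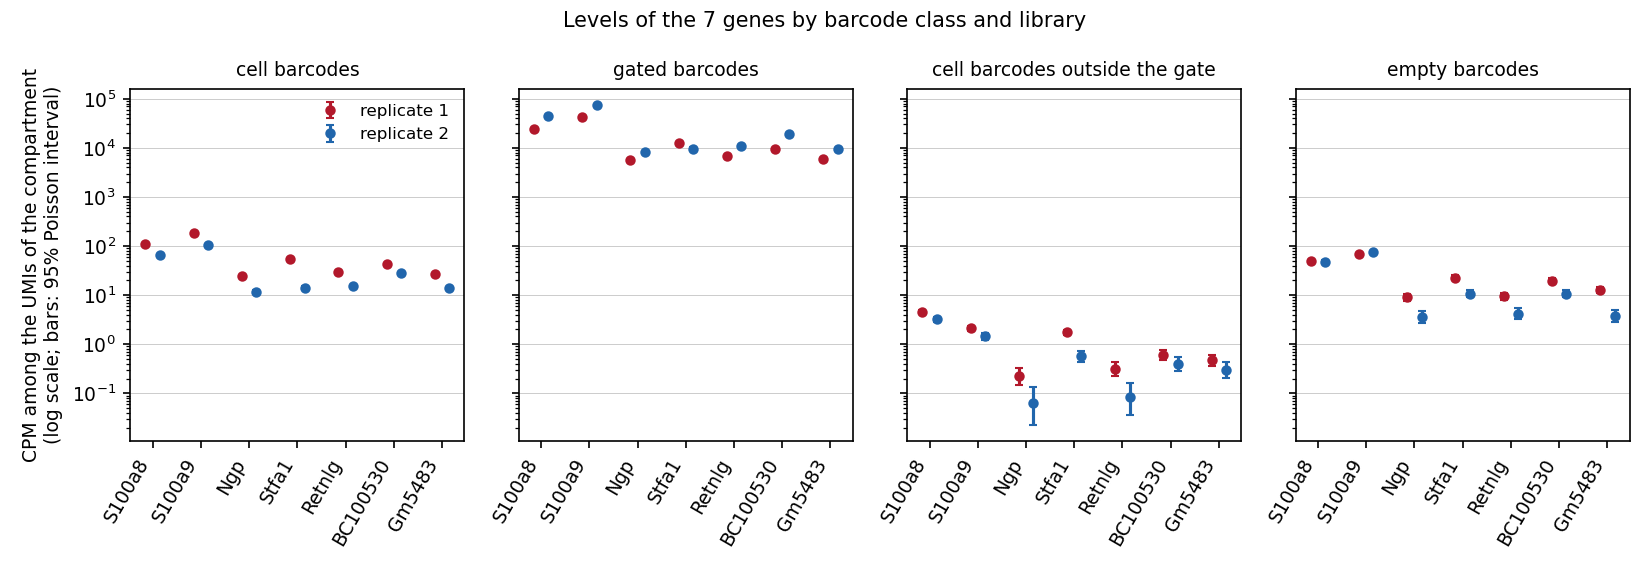
Levels of the 7 genes (x axis) in CPM among the UMIs of each barcode class, on a log scale, with replicate 1 in red, replicate 2 in blue and bars for the exact Poisson 95% interval. In cell barcodes and in barcodes outside the gate every red point lies above its blue neighbour, inside the gate only that of Stfa1 does, and in empty barcodes S100a8 and S100a9 lie close together while the other 5 genes are higher in replicate 1.

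Nearly all of this RNA sat in the gated barcodes. They held 97.9% of the members' UMIs of cell barcodes in replicate 1 and 97.6% in replicate 2 (97.8% ± 0.188, SD, n = 2 libraries), although they made up 0.435% and 0.141% of all UMIs of cell barcodes. By gene the share inside the gate was 96.0% and 95.2% for S100a8, 98.9% and 98.6% for S100a9, 96.9% and 96.0% for Stfa1 and 98.2% and 97.8% for Gm5483. It was 98.5% and 98.6% for BC100530, 99.1% and 99.5% for Ngp and 98.9% and 99.5% for Retnlg. S100a8 and S100a9 define the gate, so their shares are set in part by it, while the other 5 genes were not used to draw it. S100a8 and Stfa1 left the largest shares outside in both libraries.

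Counted over all UMIs of the gated barcodes, 6 of the 7 genes were lower in replicate 1. S100a8 stood at 24797 CPM against 45049, S100a9 at 42201 against 73257, BC100530 at 9531 against 19350 and Retnlg at 6678 against 10967. Ngp stood at 5539 against 8267 and Gm5483 at 5978 against 9580, while Stfa1 stood at 12352 against 9668. This sum depends on 4 barcodes of replicate 1 with over 20000 UMIs (the largest had 144033), a size no gated barcode of replicate 2 reached. Summed over the 7 genes, the log2 ratio of replicate 1 to replicate 2 inside the gate was -0.72 with them and 0.04 without them. It was 1.44 after removal of the highest doublet scores, which left 8 gated barcodes in replicate 2. Of the gated barcodes of replicate 1, 5 also passed a gate of another cell type (2 podocyte, 2 endothelial and 1 stroma), and none did in replicate 2. All 4 barcodes with over 20000 UMIs were among them. No gate for tubule and duct cells was drawn. The barcode that passed the stroma gate, the largest, had 108 Epcam and 100 Cdh16 UMIs, tubule and duct genes, against 19 of Col1a1 and 32 of Col3a1. A barcode of 17157 UMIs with 15 Epcam and 11 Cdh16 UMIs passed no other gate. Levels per barcode are therefore given as medians below.

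Gated barcodes were of 2 kinds, told apart by Stfa2, a stefin that is no member; this split was chosen after the values were seen. In replicate 1, 44 had at least 1 Stfa2 UMI (9 or more in each) and 12 had none, and in replicate 2 the numbers were 16 (8 or more in each) and 6. Barcodes with Stfa2 made up 0.707% of cell barcodes in replicate 1 (0.514 to 0.948) and 0.311% in replicate 2 (0.178 to 0.504), a ratio of 2.28 (1.26 to 4.32). For those without Stfa2 the ratio was 1.66 (0.575 to 5.38). The intervals of the kinds overlapped, their difference was not tested, and both follow from a gate on genes picked for differing between these libraries. Median depth was 4721 and 4342 UMIs with Stfa2, and 9517 and 9081 without. Mitochondrial UMIs made up a median of 1.5% and 1.69% with Stfa2, 3.72% and 4.04% without, and 5.13% and 5.52% over all cell barcodes.

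The 2 kinds differed in the balance of the calprotectin subunits. S100a9 UMIs exceeded those of S100a8 in 43 of 44 barcodes with Stfa2 in replicate 1 and in 16 of 16 in replicate 2, with median ratios of 1.97 (0.953 to 3.49) and 1.76 (1.41 to 3.06). S100a8 exceeded S100a9 in 10 of 12 and 4 of 6 barcodes without Stfa2, where the median ratio of S100a9 to S100a8 was 0.170 and 0.847. The libraries overlapped in each kind. These are UMIs from the 3' ends, not scaled by gene length, so the ratio is compared between barcodes and does not rank the genes.

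**Figure D2:**
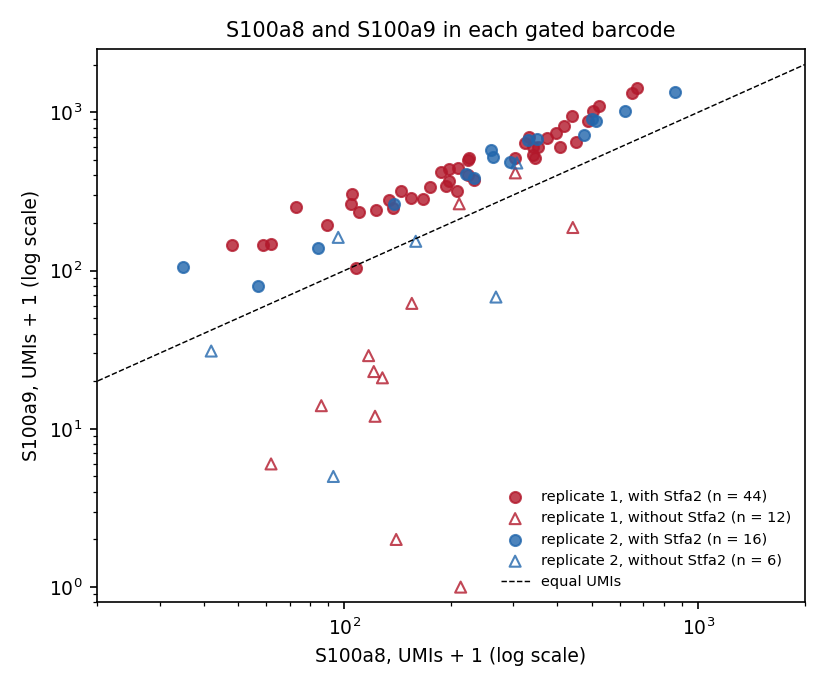
UMIs of S100a8 (x axis) and S100a9 (y axis) in each gated barcode, both plus 1 on log scales, with replicate 1 in red and replicate 2 in blue, filled circles for barcodes with Stfa2 and open triangles for those without. The circles form 1 band above the line of equal UMIs, apart from 1 barcode of replicate 1, and 14 of the 18 triangles lie below the line.

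Retnlg and Ngp were counted in gated barcodes with Stfa2 and in none without. In the latter both genes had 0 UMIs in all 12 barcodes of replicate 1 and all 6 of replicate 2, for which the interval reaches up to 29.5 and 64.6 CPM. With Stfa2, Retnlg was present in 44 of 44 and 15 of 16 barcodes, with a median of 167 UMIs per 10000 (1.46 to 677) in replicate 1 and 182 (0 to 458) in replicate 2. BC100530 had a median of 236 (6.87 to 429) and 358 (21.7 to 526) with Stfa2, against a total of 15 UMIs in 5 barcodes and 1 UMI in 1 barcode without it. Stfa1 and Gm5483 were in both kinds. Without Stfa2, Stfa1 had 637 UMIs in 11 of 12 barcodes and 111 in 4 of 6, and Gm5483 had 147 in 9 and 39 in 4.

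As a list, monocyte markers also followed the split, but Ly6c2 was counted in both kinds. The monocyte list (Ly6c2, Ccr2, F13a1, Fn1) summed to a median of 44.3 UMIs per 10000 (20.8 to 84.6) in barcodes without Stfa2 of replicate 1 and 36.5 (20.2 to 67.4) in replicate 2, against 3.51 (0 to 27.0) and 3.62 (0 to 24.7) with Stfa2. Ccr2, the receptor that brings monocytes out of the marrow, plus F13a1, the coagulation factor XIII A chain, gave at least 6 and 1 UMIs in every barcode without Stfa2, and 0 in 41 of 44 and 15 of 16 with it. Ly6c2 had 112 UMIs in 11 of 12 barcodes and 47 in 5 of 6 without Stfa2. With Stfa2 it had 114 in 25 of 44 and 53 in 11 of 16. The macrophage list (C1qa, C1qb, C1qc, Mrc1, Cx3cr1, Adgre1, Csf1r) summed to only 33 and 11 UMIs in barcodes without Stfa2, with C1qa, C1qc and Mrc1 at 0, and to 13 and 15 UMIs in those with Stfa2. The gate thus took in 12 and 6 barcodes that lacked Retnlg and Ngp and carried monocyte markers, and the neutrophil label was checked on the 44 and 16 others. The monocyte list was not specific: it had 23558 and 16181 UMIs in cell barcodes outside the gate.

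Barcodes with Stfa2 held RNA of all 8 secondary granule list genes and almost no primary granule RNA. Of the primary granule list, Mpo (myeloperoxidase), Elane (elastase), Ctsg (cathepsin G) and Ms4a3 had 0 UMIs in all 60 barcodes, Prtn3 had 1 and Prss57 had 6. Lcn2 (lipocalin 2) had 2599 UMIs in 41 of 44 barcodes and 847 in 16 of 16, Camp (cathelicidin) had 2107 in 27 and 957 in 8, and Ltf (lactoferrin) had 765 in 20 and 338 in 8. Pglyrp1 was in 43 and 16 barcodes and Olfm4 in 37 and 11. Chil3 had 410 UMIs in 23 of 44 barcodes and 28 in 5 of 16, and Cd177 (47 and 24 UMIs) and Itgb2l (3 and 12) were sparser. Some of the list was also counted in barcodes without Stfa2: Lcn2 had 127 UMIs in 11 of 12 and 16 in 3 of 6, Chil3 125 in 8 and 8 in 4, and Pglyrp1 19 in 7 and 4 in 4, whereas Camp and Ltf had 0. Lcn2 was not specific, with 2402 and 1674 UMIs in cell barcodes outside the gate.

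Genes of gelatinase granules and mature neutrophils were also counted in these barcodes, each in a different share of them. All 16 genes of that list had at least 10 UMIs over both libraries. Wfdc21 was in all 44 and 16, Mmp8 (collagenase) in 42 and 15, Mmp9 (gelatinase B) in 40 and 16, and Cxcr2, the chemokine receptor by which neutrophils leave the marrow, in 39 and 13. Mcemp1 was in 38 and 13 barcodes, Fpr2 in 33 and 12, Clec4d in 30 and 9, Ly6g in 25 and 8, Csf3r in 22 and 10, Fpr1 in 21 and 11 and Il1r2 in 20 and 7. Hdc, Trem1, Clec4e and Il1b were in 12, 12, 8 and 4 barcodes of replicate 1 and in 5, 4, 4 and 2 of replicate 2. The list was not confined to this kind: Mmp8 was in all 12 and 6 barcodes without Stfa2 and Cxcr2 in 11 and 4, whereas Ly6g and Hdc had 0 UMIs there.

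Among the transcription factors, Cebpe, which drives the secondary granule programme, was in 29 of 44 and 9 of 16 barcodes with Stfa2 and in 4 of 12 and 2 of 6 without. Spi1 (PU.1) was in 42 and 15, and in all 12 and 6 without Stfa2. Cebpb had 120 UMIs in 37 of 44 and 48 in 12 of 16 barcodes with Stfa2. Without Stfa2 it had 139 in all 12 and 64 in all 6. Gfi1, which acts early in the lineage, had 2 and 0 UMIs. The cycle list (Mki67, Top2a, Cdk1, Ccnb1, Ccnb2, Cdc20) had UMIs in 8 of 44 and 0 of 16 barcodes with Stfa2, and in 8 of 12 and 4 of 6 without. S100a11 and S100a6 were the most counted of the other S100 genes, with 1226 and 627 UMIs in replicate 1 and 419 and 359 in replicate 2, and were found throughout the kidney.

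Ngp split the barcodes with Stfa2 further. It was found in 26 of 44 in replicate 1 and 9 of 16 in replicate 2, and its median was 3.25 UMIs per 10000 (0 to 479) in replicate 1 and 26.2 (0 to 528) in replicate 2. At least 20 Ngp UMIs were found in 18 and 7 barcodes, which carried 98.9% and 98.2% of all Ngp UMIs counted in barcodes with Stfa2. A further 8 and 2 had 1 to 19, and 18 and 7 had none. Both libraries thus had barcodes across the whole range, and the number without Ngp equalled the number rich in it. Removal of the highest doublet scores ended this for replicate 2: of its 16 barcodes with Stfa2 it left 5, none with Ngp, whereas in replicate 1 it left 41, of which 24 had Ngp and 17 were rich in it. The Ngp values of replicate 2 therefore all rest on barcodes with high doublet scores. Whether a high score marks a doublet was not tested. No gated barcode of replicate 2 passed a gate of another cell type. In replicate 1 the removal left a barcode of 28481 UMIs that passed the endothelial gate.

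Other secondary granule genes followed Ngp barcode by barcode. Camp was in all 18 and 7 Ngp-rich barcodes, at medians of 146 and 170 UMIs per 10000, and in 3 of 18 and 0 of 7 barcodes without Ngp, and Ltf was in all 18 and 7 and in none of the latter. Lcn2 fell off less sharply, from medians of 184 and 139 to 28.1 and 28.1. Across the 60 barcodes Pearson's r of log2 levels was 0.95 for Ngp with Camp and 0.94 with Ltf (0.95 and 0.95 within replicate 1, 0.96 and 0.93 within replicate 2). These points are barcodes of 2 libraries that differ in depth, and r is given as a description. Median depth was 5664 and 5367 UMIs in Ngp-rich barcodes and 2854 and 2850 in those without Ngp, so depth moved with the split.

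Retnlg did not follow Ngp: r was -0.17 in replicate 1 and 0.16 in replicate 2, and its medians were 121 and 164 UMIs per 10000 with much Ngp against 179 and 200 without. Cxcr2 went the other way, at medians of 3.36 and 3.81 in Ngp-rich barcodes and 10.3 and 10.5 in those without, with r of -0.36 and -0.72. S100a8 and S100a9 were lower where Ngp was absent, S100a8 at 372 and 481 against 699 and 769 and S100a9 at 985 and 919 against 1227 and 1324. The stefin Stfa3 showed the same direction, at 23.4 and 14.0 against 80.1 and 93.3.

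**Figure D3:**
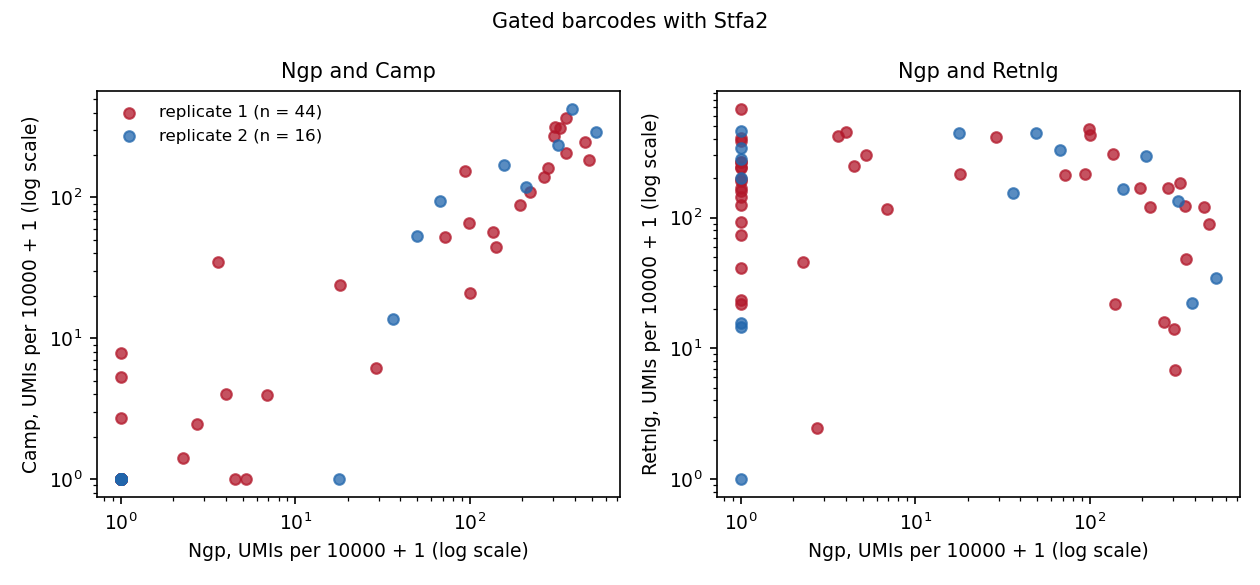
Ngp (x axis) against Camp (left) and Retnlg (right) in gated barcodes with Stfa2, in UMIs per 10000 plus 1 on log scales, 1 point per barcode, replicate 1 in red and replicate 2 in blue. Camp rises with Ngp in both libraries, while Retnlg spans a wide range among barcodes without Ngp, which lie at 1 on the x axis. In replicate 1 the lowest Retnlg levels lie in barcodes with Ngp.

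Per barcode with Stfa2, 4 of the 7 genes had medians close to each other in the 2 libraries. Medians in UMIs per 10000 were 572 in replicate 1 and 698 in replicate 2 for S100a8 (ranges 16.0 to 791 and 57.9 to 1131), and 1076 and 1270 for S100a9 (25.7 to 1553 and 81.7 to 1712). Gm5483 stood at 160 and 165 (3.26 to 241 and 21.7 to 253). Of the stefins that are no members, Stfa2 stood at 101 and 108, Stfa2l1 at 82.3 and 86.5 and Gm5416 at 7.46 and 7.99. Stfa3, at 42.6 and 68.4 (ratio 0.62), and 2010005H15Rik, at 36.0 and 25.7 (ratio 1.40), were further apart. The ratio of medians, replicate 1 over replicate 2, was 0.82 for S100a8, 0.85 for S100a9, 0.92 for Retnlg and 0.97 for Gm5483, and the ranges overlapped widely. Ngp was absent from 18 of 44 and 7 of 16 barcodes, so its medians (ratio 0.12) fall near the edge of the zeros, and its means of 96.3 and 110 gave a ratio of 0.87. Stfa1, at 314 (8.82 to 515) and 180 (27.9 to 260), had a ratio of 1.75 and BC100530 one of 0.66, in opposite directions. Removal of the highest doublet scores, which left 41 and 5 of these barcodes, turned the direction for 5 genes: the ratio of medians became 1.43 for S100a8, 1.63 for S100a9, 12.4 for Retnlg, 1.77 for BC100530 and 1.74 for Gm5483, and it was 3.15 for Stfa1. The closeness of the medians and the direction for BC100530 therefore rest on barcodes of replicate 2 with high doublet scores, and the ranges still overlapped among those left. Whether the removed barcodes were doublets was not tested, and none of those of replicate 2 passed a gate of another cell type.

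The shift between stefins was also present inside single barcodes. UMIs of Stfa1 over those of BC100530 in the same barcode had a median of 1.26 (0.734 to 2.88) in replicate 1 and 0.508 (0.217 to 1.29) in replicate 2. Stfa1 exceeded BC100530 in 32 of 44 barcodes of replicate 1 and in 2 of 16 of replicate 2, and 14 of those 16 lay below the lowest barcode of replicate 1. After removal of the highest doublet scores the medians were 1.18 in 41 barcodes and 0.633 (0.310 to 1.29) in 5. Against Stfa2, Stfa1 stood at a median of 3.01 and 1.57 and BC100530 at 2.40 and 3.09. Gm5483 over Stfa2 had medians of 1.57 and 1.5, and Stfa2l1 over Stfa2 had medians of 0.78 and 0.80. A ratio within a barcode does not depend on its depth or on how many gated barcodes a library has.

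As shares of all stefin UMIs in barcodes with Stfa2, Stfa1 made up 30.2% in replicate 1 (29.6 to 30.9) and 16.4% in replicate 2 (15.5 to 17.2), and BC100530 made up 25.7% (25.1 to 26.3) and 35.7% (34.6 to 36.8). BC117090, another copy, had 10 UMIs, 0.0493% (0.0236 to 0.0906), and 53 UMIs, 0.714% (0.535 to 0.933). The gene 2010005H15Rik (listed as Csta2) made up 4.0% and 2.72%. Every stefin other than Stfa1 and BC100530 stayed within 2 percentage points between the libraries, BC117090 and 2010005H15Rik included. The intervals of Gm5483 (14.9 to 15.9 and 16.3 to 18.0) and of Stfa3 (5.65 to 6.31 and 7.11 to 8.34) did not overlap. Those of Stfa2, Stfa2l1 and Gm5416 did. In empty barcodes the 2 libraries were closer for Stfa1, at 29.8% (27.1 to 32.7) and 28.9% (25.1 to 33.0) of stefin UMIs. They were also closer there for BC100530, at 26% (23.4 to 28.7) and 29.1% (25.2 to 33.2). They were further apart there for Gm5483 (16.6% and 10.3%), Stfa2l1 (8.2% and 11.4%), Stfa3 (4.66% and 8.94%) and 2010005H15Rik (4.57% and 1.33%). Since the copies share sequence, whether the shift lies in transcription or in the assignment of reads to copies was not tested.

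**Figure D4:**
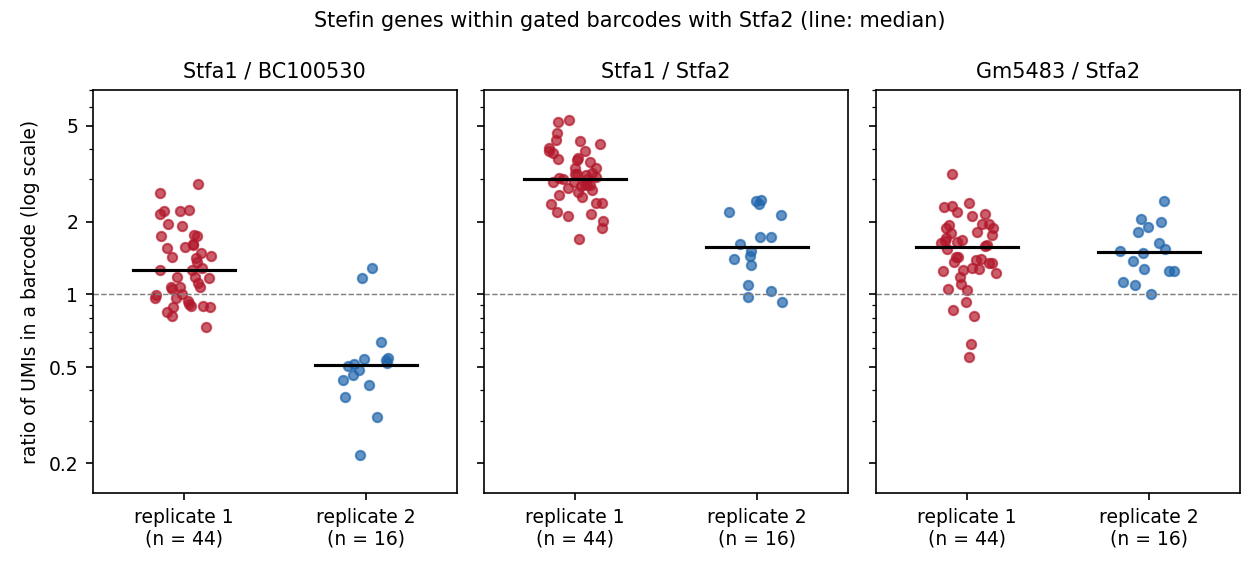
Ratios of UMIs of 2 stefin genes within a barcode (y axis, log scale) in gated barcodes with Stfa2 of each library, 1 point per barcode, with a line at the median and a dashed line at 1. Stfa1 relative to BC100530 and to Stfa2 is higher in replicate 1, whereas Gm5483 relative to Stfa2 has medians of 1.57 and 1.5.

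Outside the gate the members were rare, and much of the S100a8 and Stfa1 RNA there sat in few barcodes. S100a8 had 572 and 309 UMIs there, 4.56 CPM (4.19 to 4.94) in replicate 1 and 3.19 (2.85 to 3.57) in replicate 2, and S100a9 had 266 and 139 UMIs, 2.12 and 1.44 CPM. Of the S100a8 UMIs, 67.5% and 66.3% came from the 16 and 5 barcodes with 10 to 49 UMIs of the pair. S100a8 exceeded S100a9 in 15 of 16 and 5 of 5 of these, Ccr2 or F13a1 was present in 15 and 4, Stfa1 in 13 and 4, and Retnlg and Ngp in none. In these genes they resembled the gated barcodes without Stfa2.

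Stfa1 had 219 and 55 UMIs outside the gate (1.74 and 0.569 CPM), of which 130 and 29 were in those same 16 and 5 barcodes. BC100530 had 77 and 39 UMIs, 5 and 3 of them in these barcodes, and Gm5483 had 59 and 29, with 11 and 16 in them. Ngp had 28 and 6, with at most 2 in a barcode, and Retnlg had 39 and 8, with at most 1. The ratio of replicate 1 to replicate 2 was 3.59 (1.46 to 10.6) for Ngp, 3.75 (1.73 to 9.30) for Retnlg and 3.07 (2.27 to 4.20) for Stfa1, and 1.43 to 1.57 for the other members, with the interval for Gm5483 (0.989 to 2.54) including 1. No member reached a mean of 10 CPM outside the gate. Among the 9283 genes that did, 8 were over 2-fold higher in replicate 1 (0.0862%) and 14 in replicate 2 (0.151%).

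Shares of barcodes with a UMI were low in every gated class of kidney cells and depended on depth. After each barcode was thinned to 2000 UMIs, 1.17% of barcodes outside the gate in replicate 1 (0.915 to 1.47) and 0.897% in replicate 2 (0.658 to 1.20) had a UMI of S100a8 or S100a9, against 6.44% and 3.94% before. Unthinned shares in replicate 1 ran from 2.72% in erythroid barcodes (median depth 4481 UMIs) to 10.6% in nephron progenitor barcodes (18962 UMIs), and in replicate 2 from 0.901% in podocyte barcodes (8335 UMIs) to 8.33% in macrophage barcodes (12373 UMIs). Thinned to 2000 UMIs they were 0.297% to 1.64% in replicate 1 and up to 0.938% in replicate 2, where 0 of 84 macrophage barcodes (upper bound 4.30%) and 0 of 333 podocyte barcodes (1.10%) kept such a UMI. Of the other 5 members, at least 1 UMI was found in 4.35% and 1.74% of all barcodes outside the gate before thinning, and in 0.714% and 0.410% after.

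In empty barcodes of 50 to 250 UMIs the calprotectin genes and the rest parted. S100a8 had 693 UMIs in replicate 1 and 684 in replicate 2, 49.1 CPM (45.5 to 52.9) and 47.7 (44.2 to 51.4), and S100a9 had 979 and 1089, 69.3 CPM (65.0 to 73.8) and 75.9 (71.4 to 80.5). The 2 libraries were thus close for this pair, with ratios of 1.03 (0.925 to 1.15) and 0.913 (0.837 to 0.997). Ngp had 127 and 51 UMIs, a ratio of 2.53 (1.81 to 3.57), Retnlg 133 and 60, 2.25 (1.65 to 3.11), and Gm5483 178 and 54, 3.35 (2.46 to 4.63). Stfa1 had 320 and 152 UMIs, 2.14 (1.76 to 2.61), and BC100530 279 and 153, 1.85 (1.52 to 2.27). These UMIs were spread over barcodes, with at most 3 of S100a8, 5 of S100a9 and 6 of Ngp in 1. With barcodes of 20 to 100 UMIs taken as empty, which held only 92 and 167 member UMIs, the log2 ratio of the summed members turned from 0.30 to -0.58, with Ngp at -0.10, Retnlg at -0.94, Gm5483 at -0.72 and S100a9 at 21 against 81 UMIs. Ngp had 10 and 13 UMIs there, Retnlg 3 and 7 and Gm5483 2 and 4, so their directions rest on few UMIs. Stfa1 (13 and 8) and BC100530 (9 and 5) stayed higher in replicate 1, also on few UMIs. In barcodes under 50 UMIs both calprotectin genes were lower in replicate 1. S100a8 stood at 112 and 162 CPM there and S100a9 at 136 and 202, Retnlg at 25.0 and 29.4, BC100530 at 30.9 and 39.8, Gm5483 at 21.5 and 21.2, Ngp at 20.3 and 9.89 and Stfa1 at 42.1 and 35.5.

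Over 8888 genes averaging 10 CPM or more in empty barcodes, 15 were over 2-fold higher in replicate 1 (0.169%) and 7 in replicate 2 (0.0788%). Of the members 4 reached that mean, and Stfa1 alone of them was over 2-fold higher in replicate 1. Lists of other blood cells went in different directions in empty barcodes. The erythroid list stood at 14996 and 9073 CPM, a ratio of 1.65, and the platelet list had a ratio of 0.794 (0.713 to 0.882), while the intervals included 1 for the macrophage list, at 0.961 (0.905 to 1.02), and the monocyte list, at 1.04 (0.974 to 1.11). The secondary granule list stood at 38.7 and 22.6 CPM, a ratio of 1.71 (1.49 to 1.97).

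Set against the gated barcodes of the same library, the members' UMIs in empty barcodes spread over a narrower range in replicate 1 than in replicate 2. Per 100 UMIs in gated barcodes, empty barcodes of replicate 1 held between 3.63 (Retnlg) and 5.43 (Gm5483) UMIs of each of the 7 genes, and the interval of Retnlg (3.03 to 4.32) lay below that of S100a8 (4.71 to 5.5). In replicate 2 they held 11.1 for S100a8 (10.2 to 12.0), 10.8 for S100a9 (10.2 to 11.5) and 11.5 for Stfa1 (9.63 to 13.6). The other 4 genes stood lower in that library: 4.50 for Ngp (3.33 to 5.96), 3.99 for Retnlg (3.03 to 5.17), 5.77 for BC100530 (4.87 to 6.79) and 4.11 for Gm5483 (3.07 to 5.4). The intervals of the 3 genes did not overlap those of the 4. No doublets were removed for these values. Of the 22 gated barcodes of replicate 2, 14 had high doublet scores, among them every barcode with Ngp.

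The balance of S100a8 plus S100a9 to the other 5 genes, Stfa1 among them, was also computed. In replicate 1 it was 1.67 (1.64 to 1.70) in gated barcodes, 1.61 (1.49 to 1.74) in empty barcodes and 1.77 (1.58 to 1.99) in barcodes under 50 UMIs. In replicate 2 it was 2.05 (1.99 to 2.10), 3.77 (3.41 to 4.19) and 2.68 (2.41 to 2.99). In barcodes of 20 to 100 UMIs it was 1.49 (0.962 to 2.32) in replicate 1 and 3.51 (2.42 to 5.21) in replicate 2, so the balance was higher in replicate 2 in each of these ranges although the levels shifted. RNA in empty barcodes of replicate 2 was therefore not in the proportions of its own gated barcodes, of which 14 of 22 had high doublet scores. The 3 genes that stood out in its empty barcodes, S100a8, S100a9 and Stfa1, are those most counted in its gated barcodes without Stfa2, where the balance was 12.3 (10.4 to 14.6) and the pair plus Stfa1 made up 1961 of 2001 member UMIs. The same 3 genes made up 3749 of 3911 in the barcodes without Stfa2 of replicate 1, where they did not stand out in empty barcodes (5.10, 4.23 and 4.72 per 100). Whether barcodes without Stfa2 contributed to the RNA in empty barcodes was not tested.

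**Figure D5:**
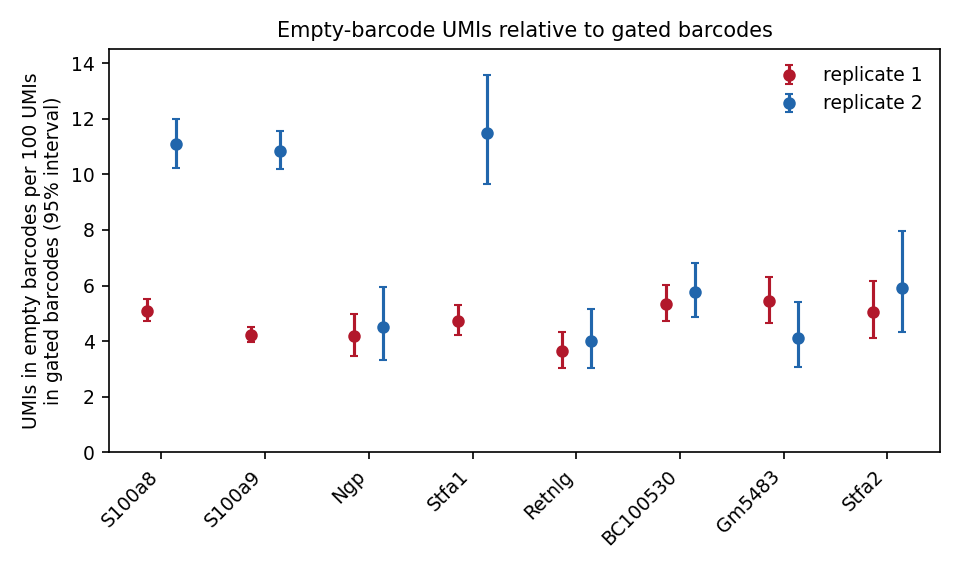
UMIs in empty barcodes per 100 UMIs in gated barcodes of the same library (y axis) for the 7 genes and Stfa2 (x axis), with exact conditional 95% intervals, replicate 1 in red and replicate 2 in blue. In replicate 1 all 8 genes lie between 3.63 and 5.43, and in replicate 2 S100a8, S100a9 and Stfa1 lie between 10.8 and 11.5 while the other 5 lie between 3.99 and 5.93.

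Barcodes above the empty range and below 2000 UMIs held about as many member UMIs as the empty ones. The members had 2686 UMIs there in replicate 1 and 2337 in replicate 2, against 2709 and 2243 in empty barcodes, and 56.4% and 79.4% of those between came from 11 and 13 barcodes with 5 or more member UMIs. Gated but under 2000 UMIs were 5 barcodes of 1616 to 1863 UMIs in replicate 1 and 9 of 1314 to 1935 in replicate 2. All 5 and 9 had Stfa2, 3 and 7 had Retnlg, and none had Ngp. Replicate 2 therefore had more of these barcodes just under the depth limit than replicate 1, and with a limit of 500 UMIs the gated barcodes numbered 61 and 31.

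By correlation across the 11369 cell barcodes of both libraries, the genes most like the summed members in log2(UMIs per 10000 + 1) were Stfa3 and Stfa2l1 (Pearson's r 0.90 each), Mmp8 and 2010005H15Rik (0.89 each), Wfdc21 (0.87), Stfa2 (0.85), Pglyrp1 (0.84), Asprv1 (0.81), Hp (0.80) and Gm5416 (0.79), out of 17052 genes with at least 30 UMIs. Of their UMIs in cell barcodes, the share inside the gate was 98.9% and 98.9% for Stfa2, 97.4% and 97.4% for Wfdc21 and 83.2% and 89.2% for Mmp8. Hp (haptoglobin), with 41.7% and 37.4%, and Pglyrp1, with 74.7% and 58.0%, were counted more widely.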

How the data were processed

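Single-cell suspensions of P0 kidney were made into 3' libraries on the 10x Chromium system, per the labels' protocols. The authors deposited raw UMI counts per gene and barcode in unfiltered matrices. The file headers name Cell Ranger 4, the submitters' processing notes name Cell Ranger 6.0.1 and the build mm10, and the annotation version is not given in the sources used here. Positions come from RefSeq's GRCm38.p6 table, in which 6 of the 7 members matched by symbol or synonym.

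The genes and lists, the gate and the other settings were chosen with earlier results of these data known. Cell barcodes had at least 2000 UMIs and at most 10% mitochondrial UMIs (690 and 768 barcodes removed), and empty barcodes had 50 to 250 UMIs. Gated barcodes had at least 50 UMIs of S100a8 plus S100a9. No doublets were removed in the main counts, and removal by Scrublet score (310 and 212 barcodes, 4.98% and 4.12%) was an alternative. CPM are UMIs per 1000000 UMIs of the barcode class. Intervals are exact Poisson for CPM, exact binomial (Clopper-Pearson) for shares and exact conditional for ratios, at 95%. The ratio intervals and the 2-fold rule were tested on simulated counts. Cells are not replicates and each side has 1 library, so no test was run. The background was the share of genes averaging 10 CPM or more whose ratio exceeded 2. Genes named beside the members were those of the marker lists with at least 10 UMIs in gated barcodes, list-defining genes at 0, and the 10 non-members most correlated with the members. Prss57 and Gfi1 fall outside this rule and were named after their values were seen, as were the sex-linked genes. The values of 1 gene of the mature neutrophil list are not reported here. The myeloid transcription factor list had 6 genes, of which 5 were measured. Other minima, limits, gates and ranges of empty barcodes, and each library alone, were tried as alternatives. The split by Stfa2 and the omission of gated barcodes over 20000 UMIs were added after seeing the data, as was the removal by doublet score for values within barcodes. Scripts ran in Python 3.11.15 with numpy 2.4.6, scipy 1.17.1, pandas 2.3.3 and scanpy 1.11.5. No sequence is printed here.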

Additional observations from a re-analysis of the deposited data

How the results depend on the processing

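Counting error is the only error measured, 1 library stands on each side, and gated barcodes number 56 and 22, so values per kind rest on as few as 6 barcodes. Of 289 values recomputed under alternatives, 151 stayed within the reported value's counting interval (for the mean share inside the gate, 1 SD, and for counts, 1.5-fold), 121 moved and 17 changed sign; the cause was not tested unless named. No paired analysis was possible because both libraries belong to 1 group.

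Log2 ratios are replicate 1 over replicate 2, summed over the 7 genes unless 1 is named, and stood at 0.90 in cell barcodes, 0.73 outside the gate and -0.72 inside it in the report. With a minimum of 500 UMIs per cell barcode they were 0.83, 0.98 and -0.66, and the share of member UMIs inside the gate, 97.8% in the report, was 97.4%. With 5000 UMIs, gated barcodes numbered 32 and 13, the ratio was 0.955 in cell barcodes and -0.80 inside the gate, and the share was 97.1%. A mitochondrial limit of 5% gave 0.49 in cell barcodes, -0.24 inside the gate and a share of 98.7%, and a limit of 20% gave 0.98 in cell barcodes. A gate of 20 UMIs gave 1.08 outside it, -0.58 inside it and a share of 98.7%. A gate of 200 UMIs gave -0.86 inside it, a share of 95.35% and, outside it, -0.077 for BC100530. A gate of 1% of UMIs gave 1.60 outside, -0.24 inside and a share of 96.5%.

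Removal by doublet score left 8 gated barcodes in replicate 2, a log2 ratio of gated shares of 2.36 (1.08 in the report) and of member levels of 3.57 in cell barcodes. Inside the gate every member was then higher in replicate 1: 1.44 for the sum, 1.15 for S100a8, 1.33 for S100a9, 0.93 for Retnlg, 1.38 for BC100530, 1.59 for Gm5483 and at least 7.29 for Ngp, which had 0 UMIs in replicate 2 and was set against 3 counts. The share inside the gate was 91.8%. Empty barcodes of 20 to 100 UMIs reversed the ratio there (0.30 in the report) to -0.58 for the sum, with -0.10 for Ngp, -0.94 for Retnlg and -0.72 for Gm5483. The values by gene rest on few UMIs: 10 and 13 for Ngp, 3 and 7 for Retnlg and 2 and 4 for Gm5483. Gated barcodes with Stfa2 alone gave -1.10 for the sum, -0.066 for Stfa1 and a share of 90.5%. Without those over 20000 UMIs the ratios inside the gate were 0.043 for the sum, 0.25 for Ngp, 0.0027 for Retnlg and 0.093 for Gm5483, and the share was 95.2%; both of these were added after seeing the data. Leaving out 1 library moved the mean share inside the gate between 97.6% and 97.9%.

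Genes over 2-fold higher in replicate 1 numbered 77 in cell barcodes, 68 outside the gate and 132 in empty barcodes with a minimum mean of 1 CPM, and 4, 4 and 5 with 50 CPM, against 12, 8 and 15 at 10 CPM. A ratio over 1.5 took 56, 43 and 78 genes. Thinned to 5000 UMIs instead of 2000, 2.35% and 1.21% of barcodes outside the gate had a UMI of S100a8 or S100a9.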
